A study of Mus musculus with 4 samples.

Results

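The uridine diphosphate glucuronosyltransferases (Ugt genes of families 1 to 3) and the cytosolic sulfotransferases (Sult genes) were examined in mouse liver as 32 of the 22155 gene symbols in the count table. Members were the symbols beginning with Ugt1, Ugt2 or Ugt3 and a subfamily letter and number, or with Sult and a number. The Sult2a and Sult3a subfamilies were left out by the rule. All animals were wild-type C57BL/6 mice aged 8 to 10 weeks, and all received the Lieber-DeCarli liquid diet with 5% ethanol for 10 days. The group called ethanol alone held 2 libraries. In the gavage group, also of 2 libraries, a binge of 5 g ethanol per kg body weight was given into the stomach and the liver was taken 9 h later. Whether the other mice had a control gavage, their sex and the hour of their death were not given in the sources used here. Nothing in the labels says that the 2 libraries of a group stem from different mice, so the p-values rest on the spread between libraries, which may be technical.

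Glucuronosyltransferases sit in the membrane of the endoplasmic reticulum and move glucuronic acid from UDP-glucuronic acid onto bilirubin, steroids, bile acids and drugs. Sulfotransferases work in the cytosol and move a sulfate group from the donor PAPS onto hormones and phenols. Both reactions make small molecules water-soluble for export into bile or urine. A minor share of ingested ethanol is itself conjugated by these enzymes, to ethyl glucuronide and ethyl sulfate. The Ugt1a genes share one set of downstream exons and differ in their first exon. Ugt2a1 and Ugt2a2 also share most of their exonic bases, whereas the other Ugt2 genes, Ugt3a and Sult genes are largely units of their own.

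Total counts ranged from 28791281 to 30347558 per library. Values below are CPM, which are counts scaled to the size of each library after TMM adjustment, in the order ethanol alone replicates 1 and 2, then gavage replicates 1 and 2. A floor of 3 counts equals 0.0955 to 0.11 CPM, and this floor covers counting error only. Replicate 1 of ethanol alone stood apart in genes that differ between male and female liver. Its 13 male-type liver genes summed to 13474 CPM against 1280 to 1480 CPM in the other libraries, and its 17 female-type genes to 1094 against 2871 to 3026 CPM. The 4 Y-linked genes Ddx3y, Kdm5d, Eif2s3y and Uty were at 0 or 1 count each in every library. Fat-cell markers, 7 genes without Car3, summed to 64.7 and 8.49 CPM with ethanol alone and to 114 and 46.1 CPM after gavage. Adipoq, Lep, Plin1, Cfd and Retn were at 0 to 2 counts in the replicates numbered 2, with Adipoq at 5.53 and 8.92 CPM in the replicates numbered 1. Cidec and Fabp4 made up nearly all of the sum in gavage replicate 2, at 33.9 and 12.1 CPM. With Car3 added, the 8 genes summed to 2040 and 1933 CPM with ethanol alone and to 663 and 604 CPM after gavage. That sum, most of it Car3, was thus lower after gavage. Alb, albumin, the defining hepatocyte transcript, ranged from 83277 to 110898 CPM. Summed Kupffer cell markers stood at 780 and 750 CPM with ethanol alone and at 444 and 494 CPM after gavage. Neutrophil markers summed to 6.04 and 5.75 CPM against 20.7 and 7.91 CPM. Only 5 of the 13 had enough counts to be tested, and nothing is read from their direction. Marker sums of hepatocytes near the central vein stood at 13680 and 10793 CPM with ethanol alone against 5470 and 6367 CPM after gavage. Of those 10 genes, 6 had a log2 fold change below 0 and 4 above, with a median of -0.15. Near the portal vein the sums were 8050 and 7001 against 3127 and 4748 CPM. There 9 of 10 genes were below 0 and 1 above (median -0.69), beside 48.3% of all tested genes below 0. The part of any of these in the results below was not tested, and in whole liver fewer cells of a type and less RNA per cell cannot be told apart.

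In the Ugt2 family 4 genes, together with Ugt3a1, lay lower after gavage, while no Ugt1a gene had an unadjusted p under 0.05. Among sulfotransferases, Sult5a1 and Sult1b1 lay lower and Sult1e1, estrogen sulfotransferase, lay higher. No member passed the adjusted threshold. The quasi-likelihood test of edgeR, adjusted by Benjamini-Hochberg, called 0 of 13309 genes (0%), and the smallest adjusted p among members was 0.133. Enough counts for the test were present for 23 members, 17 Ugt and 6 Sult. At an unadjusted p under 0.05, 7 tested members were lower and 1 higher, beside 9.85% and 8.91% of all tested genes in those directions, or 18.8% in either. limma-voom called 0 members. DESeq2, on the 20 members for which it gave an adjusted p, called 6 lower and 1 higher, beside 5.43% and 4.37% of all genes with an adjusted p. edgeR's likelihood-ratio test called 5 members, Sult1e1 among them, beside 4.13% of genes. Sult1e1 was also the 1 higher member in the counts above. It had enough counts for the test through its gavage libraries and only 1 library of ethanol alone, so nothing is read from the counts of higher members. With each library left out in turn, the counts of members at an unadjusted p under 0.05 changed, and so did the shares over all tested genes. Nothing is read from these shifts. Sult2b1 and Sult4a1 entered some of those fits through gavage replicate 1 alone, where they are high, and nothing is read from them.

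**Figure D1:**
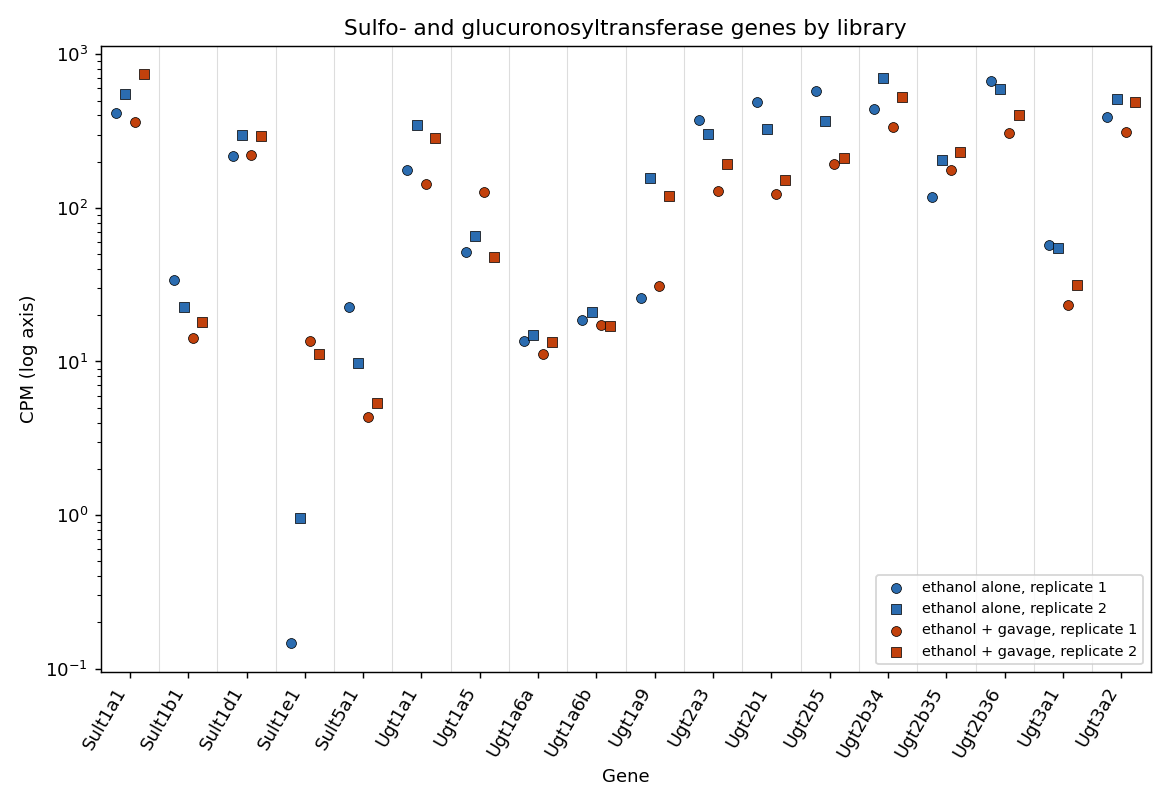
CPM on a log axis for the 18 members with a mean of at least 10 CPM or an unadjusted p under 0.05, 1 point per library, blue for ethanol alone and orange for gavage, circles for replicate 1 and squares for replicate 2. Both gavage points lie below both ethanol alone points for Ugt2a3, Ugt2b1, Ugt2b5, Ugt2b36, Ugt3a1, Sult1b1, Sult5a1, Ugt1a6a and Ugt1a6b. They lie above them for Sult1e1, where ethanol alone stood at 0.146 and 0.958 CPM. Of all tested genes, 27.2% lie below and 27.5% above in this way.

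The Ugt2b enzymes conjugate steroids, bile acids and many drugs. Ugt2b1 stood at 492 and 324 CPM with ethanol alone and at 122.5 and 151 CPM after gavage. Both gavage libraries lay under both others, and the log2 fold change was -1.58 (SE 0.30; edgeR adjusted p = 0.134). Ugt2b5 had 574 and 369 CPM against 193 and 211 CPM, again without overlap. Its log2 fold change was -1.22 (SE 0.29; edgeR adjusted p = 0.163). For Ugt2b36 the libraries held 673 and 594 CPM with ethanol alone and 306 and 400 CPM with the gavage. Its log2 fold change was -0.84 (SE 0.25; edgeR adjusted p = 0.202), and the groups did not overlap. Ugt2a3, whose product is known to act on bile acids, also held its groups apart, at 373 and 303 CPM against 128 and 193 CPM. The fit gave it a log2 fold change of -1.07 (SE 0.29; edgeR adjusted p = 0.186). In a fit without replicate 1 of ethanol alone these 4 genes had log2 fold changes of -1.27, -0.89, -0.78 and -0.94, in the order named, each still at an unadjusted p under 0.05. Leaving out replicate 1 of the gavage group instead, Ugt2a3 at -0.81 and Ugt2b36 at -0.66 were no longer under it, with edgeR adjusted p = 0.604 and 0.632.

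Other genes of the family did not separate the groups. Ugt2b34 stood at 441 and 704 CPM against 339 and 530 CPM. The 95% interval of its log2 fold change ran from -1.30 to 0.51. Ugt2b35 had 118 and 206 CPM against 176 and 230 CPM (interval -0.52 to 1.17). Both genes were lower in replicate 1 than in replicate 2 of each group, so the spread within a group was as wide as the difference between groups. Ugt2b37 remained between 1.40 and 3.19 CPM in every library. Ugt2b38 was left out of the test, with 132 counts in replicate 1 of ethanol alone and 3, 3 and 0 counts in the rest. That library is the one high in male-type liver genes. Ugt2a1 and Ugt2a2, known from olfactory tissue, had 0 counts in all libraries. Of their exonic bases, 2540 of 2570 and 2401 of 2541 are shared with another gene. Reads there could have been dropped in the counting, so absence cannot be read from these 0 counts. Summed over the Ugt2 family, the libraries held 2680 and 2500 CPM with ethanol alone and 1267 and 1717 CPM after gavage.

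**Figure D2:**
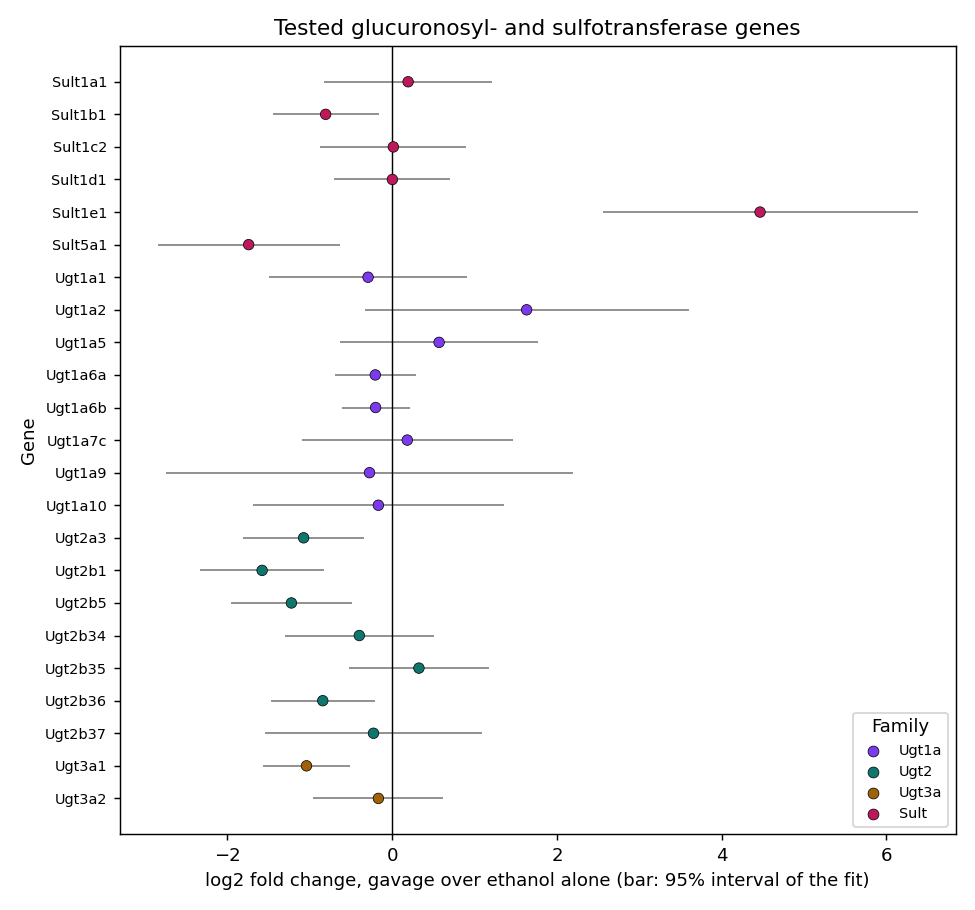
Log2 fold change of gavage over ethanol alone for the 23 tested members (points, coloured by family) with the 95% interval of the edgeR fit (bars), which is not adjusted over genes. The intervals of Ugt2a3, Ugt2b1, Ugt2b5, Ugt2b36, Ugt3a1, Sult1b1 and Sult5a1 lie below 0 and that of Sult1e1 runs from 2.55 to 6.38.

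Ugt2 genes and 3 of the Sult1 genes stand side by side on chromosome 5 (GRCm38, 86889767 to 87591594, whole genes with introns), 13 members in 701.8 kb. From low to high coordinate the order is Ugt2b34, Ugt2b1, Ugt2b35, Ugt2b36, Ugt2b5, Ugt2b37, Ugt2a3, Ugt2b38, Ugt2a1, Ugt2a2, Sult1b1, Sult1d1 and Sult1e1. Members that lay lower were interspersed with others: Ugt2b1 (86916638 to 86926530) stands between Ugt2b34 and Ugt2b35. Ugt2b36 (87065927 to 87092555) and Ugt2b5 (87124960 to 87140318) are neighbours. Ugt2a3 (87324972 to 87337195) lies between the scarcely detected Ugt2b37 and Ugt2b38. At the far end the 3 sulfotransferase genes each did something else, with log2 fold changes of -0.81 for Sult1b1, 0.00 for Sult1d1 and 4.47 for Sult1e1.

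**Figure D3:**
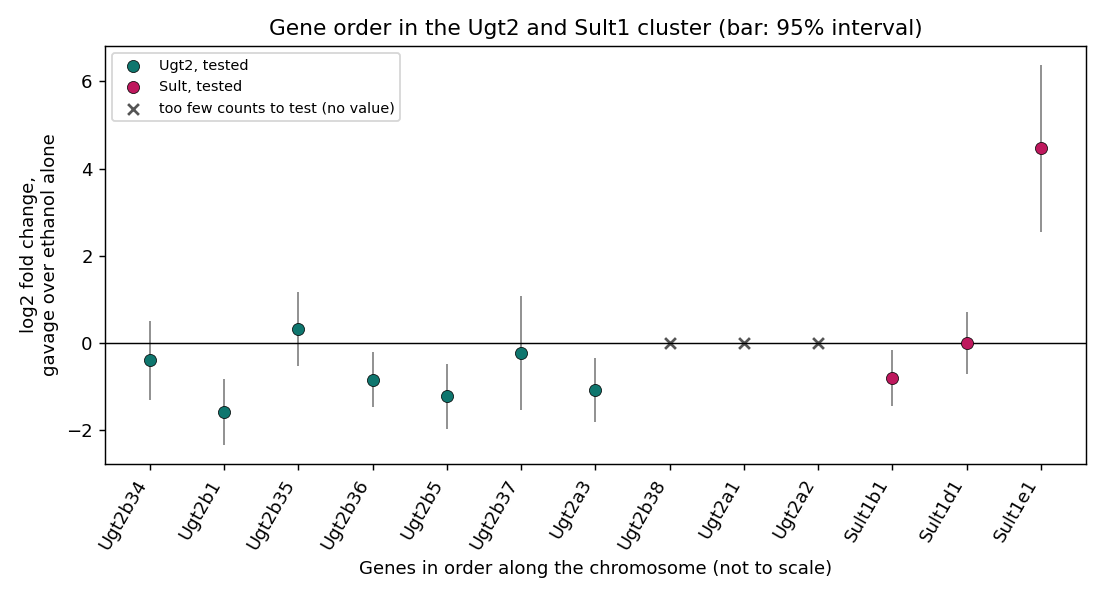
Log2 fold change (points) with its 95% interval (bars) for members of the chromosome 5 cluster, in gene order and not to scale, with crosses at 0 for 3 members that had too few counts to test. Values below 0 at Ugt2b1, Ugt2b36, Ugt2b5, Ugt2a3 and Sult1b1 are interspersed with values near 0, and Sult1e1 at the end stands at 4.47.

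Close copies in the cluster differed widely in level. Per kb of exon not shared with another gene, Ugt2b5 had a mean of 181 CPM over the 4 libraries, while Ugt2b37 had 1.17 and Ugt2b38 0.665. The promoter windows of these genes are shown because they are near copies: 248 of 300 bases of the Ugt2b37 window and 261 of 300 of the Ugt2b38 window were identical to Ugt2b5 in a global alignment. Each runs from 250 bases before to 50 after the start site (RefSeq, GRCm38.p6, 5′ to 3′ on the minus strand), and capitals mark bases that differ from, or have no partner in, the Ugt2b5 window. They lie at chr5:87140291-87140590, chr5:87254739-87255038 and chr5:87424154-87424453.
Ugt2b5: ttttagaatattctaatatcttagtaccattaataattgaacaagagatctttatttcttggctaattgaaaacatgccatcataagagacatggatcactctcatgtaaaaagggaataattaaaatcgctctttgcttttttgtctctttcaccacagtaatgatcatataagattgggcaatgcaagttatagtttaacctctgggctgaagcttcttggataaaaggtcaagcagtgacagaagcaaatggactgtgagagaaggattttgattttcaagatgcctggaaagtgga
Ugt2b37: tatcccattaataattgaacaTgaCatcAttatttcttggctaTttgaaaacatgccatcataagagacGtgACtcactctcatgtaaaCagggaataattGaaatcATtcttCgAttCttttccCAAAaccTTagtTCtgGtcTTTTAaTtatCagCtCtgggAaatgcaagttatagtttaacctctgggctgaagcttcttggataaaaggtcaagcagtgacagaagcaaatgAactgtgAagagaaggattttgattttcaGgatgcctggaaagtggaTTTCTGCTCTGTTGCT
Ugt2b38: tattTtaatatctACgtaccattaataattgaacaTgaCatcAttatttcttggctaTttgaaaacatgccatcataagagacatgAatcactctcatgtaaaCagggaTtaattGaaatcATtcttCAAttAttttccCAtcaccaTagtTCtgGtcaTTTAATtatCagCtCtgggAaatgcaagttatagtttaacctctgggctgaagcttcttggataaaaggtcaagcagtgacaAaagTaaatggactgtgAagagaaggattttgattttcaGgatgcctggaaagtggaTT
In transcripts, 34.8% of the 50-base words of Ugt2b5 also occur in Ugt2b38 and 15.2% of those of Ugt2b37 occur in Ugt2b5. Reads there could have been split or lost in the counting, so the levels of these 3 genes are uncertain. Ugt2b1 shared 0% of its words with any other gene, Ugt2b36 0.326% and Ugt2a3 4.55%.

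The family 3A enzymes use sugars other than glucuronic acid. Ugt3a1 (chromosome 15, 9276888 to 9315032) stood at 57.4 and 55.0 CPM with ethanol alone and at 23.2 and 31.5 CPM with the gavage. Its log2 fold change of -1.04 (SE 0.21; edgeR adjusted p = 0.140) was the same to 2 decimals without replicate 1 of ethanol alone. The neighbouring Ugt3a2 (9335550 to 9370955) had 393 and 511 CPM against 314 and 491 CPM. Its groups overlapped, and its interval ran from -0.96 to 0.62. These copies share 8.88% of the 50-base words of Ugt3a1.

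The Ugt1a locus on chromosome 1 gives rise to the bilirubin enzyme Ugt1a1 and to a set of phenol-conjugating enzymes. Because of the shared exons, 59.7% to 100% of the 50-base words of each Ugt1a transcript occur in another gene's transcript, and reads from them could have been dropped or split. Levels of Ugt1a genes are therefore compared only between libraries, not between genes. Ugt1a1 (88211959 to 88218997) stood at 177 and 348 CPM with ethanol alone and at 142 and 287 CPM after gavage. Ugt1a9 (88070800 to 88218997) had 25.9 and 157 CPM against 30.8 and 120 CPM. In both genes the replicates numbered 2 were high and those numbered 1 low, whichever the group. The 95% intervals of the log2 fold changes were wide, from -1.50 to 0.91 for Ugt1a1 and from -2.75 to 2.196 for Ugt1a9.

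Ugt1a6a and Ugt1a6b, a pair of phenol enzymes, varied little between libraries. Ugt1a6a had 13.6 and 14.9 CPM against 11.2 and 13.5 CPM. Ugt1a6b had 18.6 and 20.8 CPM against 17.4 and 16.9 CPM. The gavage libraries lay just under the others in both, with log2 fold changes of -0.20 (SE 0.19) and -0.20 (SE 0.16), edgeR adjusted p = 0.605 and 0.539. Ugt1a5 differed in 1 library, at 52.0 and 65.7 CPM against 127 and 47.8 CPM. Its log2 fold change was 0.57 and became -0.30 without that library, replicate 1 of the gavage group. Ugt1a2, Ugt1a7c and Ugt1a10 ranged from 0.0732 to 1.15 CPM, and Ugt1a8 had 0 to 4 counts per library. Ugt1a2 passed the filter through its gavage libraries alone.

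Sulfotransferases lay on both sides of 0. Sult1e1 (chromosome 5, 87575969 to 87591594), which inactivates estrogens, had 4 and 29 counts with ethanol alone and 429 and 339 counts with the gavage. That is 0.146 and 0.958 CPM against 13.7 and 11.3 CPM, with no overlap and a log2 fold change of 4.47 (SE 0.75; edgeR adjusted p = 0.133). DESeq2 called it with an adjusted p of 8.1e-09. The low ethanol alone libraries differed 6.54-fold from each other, and the lower is replicate 1, which stood apart in sex-typical genes. When it was left out the log2 fold change was 3.67 (edgeR adjusted p = 0.254), and with replicate 2 of ethanol alone left out it was 6.32 (edgeR adjusted p = 0.0615). The gene passed the filter on low counts through its gavage libraries and only 1 library of ethanol alone.

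Sult5a1 (chromosome 8, 123140192 to 123158315), a family member whose substrate is not well known, stood at 22.7 and 9.84 CPM against 4.33 and 5.38 CPM. The log2 fold change was -1.74 (SE 0.43; edgeR adjusted p = 0.171), and -1.05 without replicate 1 of ethanol alone. Sult1b1 (chromosome 5, 87513339 to 87538195), which acts on thyroid hormones, had 33.7 and 22.8 CPM against 14.2 and 18.1 CPM. Its log2 fold change was -0.81 (SE 0.25; edgeR adjusted p = 0.213). It was -0.52 when replicate 1 of ethanol alone was left out and -0.64 when replicate 1 of the gavage group was, and in neither fit was its unadjusted p under 0.05. In both genes replicate 1 of ethanol alone was the highest library.

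The most abundant sulfotransferases did not separate the groups. Sult1a1 (chromosome 7, 126672865 to 126676432), the main phenol sulfotransferase, had 413 and 550 CPM against 362 and 740 CPM. Its widest spread was within the gavage group, and the interval of the log2 fold change ran from -0.82 to 1.21. Sult1d1 (chromosome 5, 87554645 to 87569027), which acts on catecholamines, had 217 and 299 CPM against 222 and 295 CPM. Its libraries paired off almost evenly across the groups, with a log2 fold change of 0.00 (SE 0.28). Sult1c2 ranged from 6.51 to 12.1 CPM. Sult2b1, which acts on cholesterol, had 2 and 0 counts against 36 and 0, and Sult4a1, known from brain, 1 and 3 against 28 and 3. Both were thus present mainly in replicate 1 of the gavage group. Sult6b1 had 1 count in all, and Sult1c1 and Sult6b2 had 0.

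Per kb of own exon, and leaving out Ugt1a, the highest mean over the 4 libraries was that of Sult1a1, at 372 CPM. Ugt2b36 followed at 261 CPM per kb. Ugt3a2 (184), Ugt2b5 (181), Ugt2a3 (118), Ugt2b34 (117), Sult1d1 (107) and Ugt2b1 (106 CPM per kb) came next. Each of these overlapped its neighbour in this order over the 4 libraries. Ugt2b35 stood at 54.4 CPM per kb, and Ugt3a1 below it at 18.6 CPM per kb without overlap. Sult1b1 (7.98) and Sult5a1 (2.77 CPM per kb) lay lower still. These means pool both groups, so the place of a gene that differs between them can change with the group. Sult1e1 stood at 0.118 and 0.771 CPM per kb with ethanol alone, below Sult5a1 at 5.96 and 2.59. After gavage it stood at 11 and 9.07 CPM per kb, above Sult1b1 at 5.10 and 6.51.

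Ugt1a genes are known targets of the receptors CAR, PXR, AHR and PPARa, so a list of 18 genes, here called receptor targets, was set beside them. The list also holds targets of the transcription factor NRF2, Srxn1 and Hmox1 among them. Its counts are thus not a measure of the named receptors alone. Within ethanol alone, replicate 2 was 1.96-fold above replicate 1 for Ugt1a1 and 6.05-fold for Ugt1a9. Within the gavage group these ratios were 2.02 and 3.90. Cyp2b10, the classical CAR target, differed in the same direction by 173.7-fold and 27.3-fold, from 0.622 to 108 CPM and from 12.9 to 352 CPM. Cyp3a11, a PXR target, differed by 3.52-fold and 2.70-fold. Of the 18 receptor targets, 14 were higher in replicate 2 in both groups, 2 were lower in both (Cyp1b1 and Pdk4) and 2 differed in direction (Por and Acot1). The direction was not shared by all Ugt1a genes, nor limited to them. Of the 18 members given by library, 8 were higher in replicate 2 in both groups, 3 of them among the 5 Ugt1a genes, and 10 differed in direction. Ugt1a5 had ratios of 1.26 and 0.376, and Ugt1a6b of 1.12 and 0.974. Ugt1a6a had 1.09 and 1.20. Outside the locus, Ugt2b34 had 1.59 and 1.57, Ugt2b35 1.74 and 1.31 and Sult1a1 1.33 and 2.05. Ugt2b1 had 0.659 and 1.23, opposite directions in the groups. Replicate 1 of each group was also the library with Adipoq, Cfd and Plin1 counts, whose part in this was not tested. Across all tested genes, deviations of same-numbered libraries from their group means correlated at 0.587, so a shared direction was not limited to these genes. The share of all genes with a shared direction was not counted, so nothing is read from the counts of 14 receptor targets and 8 members. With 2 libraries per group no test was made.

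**Figure D4:**
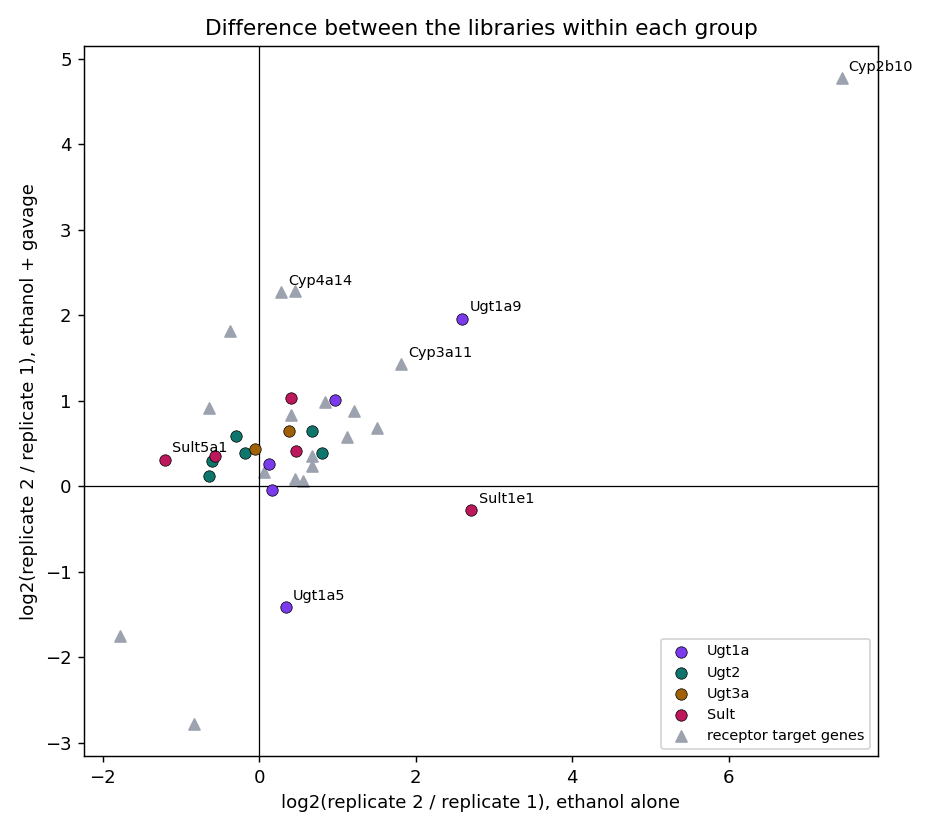
Log2 ratio of replicate 2 to replicate 1 within ethanol alone (horizontal axis) and within the gavage group (vertical axis) for the 18 members shown by library (circles, by family) and 18 receptor target genes (grey triangles). Ugt1a9 lies in the upper right with Cyp3a11 and Cyp2b10, whereas Sult1e1 and Ugt1a5 differ between libraries in 1 group more than in the other.

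Donor supply was described next, since both reactions consume an activated donor. A list of 9 genes was taken for UDP-glucuronic acid supply. It also holds Uxs1, which uses the donor up, and Slc35 carriers other than Slc35d1. Its counts and median thus describe the list, not supply alone. Of the 9 genes, 2 at an unadjusted p under 0.05 were higher and 2 were lower. Over all tested genes these shares were 8.91% and 9.85%, a background that holds for each list below. The median log2 fold change was 0.08 against 0.02 over all tested genes. Ugdh, which makes UDP-glucuronic acid, had 95.2 and 113 CPM against 118 and 102 CPM (interval -0.45 to 0.61). Ugp2, the most abundant, which makes UDP-glucose, had 446 and 813 CPM against 721 and 796 CPM. Slc35d1, which carries UDP-glucuronic acid into the endoplasmic reticulum, stood at 94.7 and 119 CPM against 141 and 216 CPM. The groups did not overlap, at a log2 fold change of 0.74 (SE 0.29; edgeR adjusted p = 0.265). Pgm1 had a log2 fold change of 0.74, Pgm2 of -0.61 and Uxs1, which uses the donor up to make UDP-xylose, of -0.68. These counts changed with each library left out in turn. The shares over all tested genes changed in those fits as well, here and for the lists below, so nothing is read from the shifts.

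PAPS is made from ATP and sulfate, and the sulfate comes largely from cysteine. Of 19 tested genes of PAPS supply and sulfate handling, 0 at an unadjusted p under 0.05 were higher and 5 were lower, and the median log2 fold change was -0.43. Papss2, the main hepatic PAPS synthase, stood at 301 and 363 CPM against 174 and 176 CPM. The groups did not overlap (log2 fold change -0.93, SE 0.22; edgeR adjusted p = 0.163). Papss1, the second synthase, had 11.9 and 16.5 CPM against 13.2 and 12.7 CPM. Cdo1, which starts cysteine oxidation, had 2879 and 1894 CPM against 1067 and 1531 CPM. Ethe1, a sulfur dioxygenase of mitochondria, had 65.0 and 66.0 CPM against 18.0 and 27.4 CPM. The fit gave -1.53 on the log2 scale (SE 0.25; edgeR adjusted p = 0.133). Tst, a sulfurtransferase, had a log2 fold change of -0.87 and Sumf1, which activates sulfatases, of -0.56. The counts of this list also changed with each library left out.

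**Figure D5:**
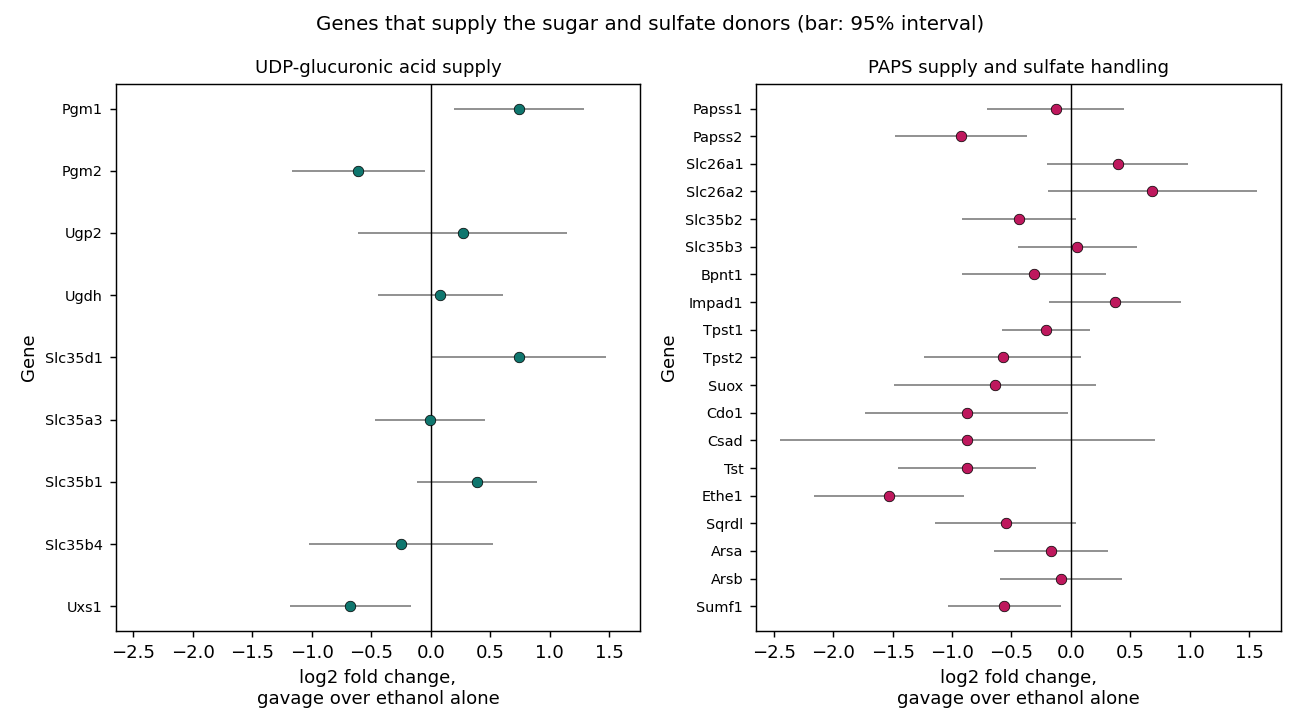
Log2 fold change of gavage over ethanol alone (points) with its 95% interval (bars). Shown are the 9 genes listed for UDP-glucuronic acid supply and the 19 tested genes of PAPS supply and sulfate handling. Ugdh stands at 0.08, while Papss2 and Ethe1 lie below 0 with intervals that do not reach it.

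Of 8 genes that split glucuronides or use glucuronate, 0 were higher and 4 lower at that level, with a median of -0.50. They were Rgn, the gluconolactonase of mouse ascorbate synthesis (log2 fold change -1.39), Dcxr (-1.09), Cryl1 (-0.84) and Akr1a1 (-0.63), which act on glucuronate and its products. Gusb, beta-glucuronidase, had 32.0 and 44.9 CPM against 38.9 and 44.8 CPM. The count of lower genes was smaller with any library left out. Among 11 transporters of conjugates and other organic anions, 1 was higher and 4 lower (median -0.50). Abcc4, a basolateral exporter, stood at 3.99 and 13.4 CPM against 17.2 and 44.8 CPM. Slco1b2 had the highest mean of the list and a log2 fold change of -0.84, Slc22a7 of -0.90 and Abcc6 of -0.62. Slco1a1 was high only in replicate 1 of ethanol alone, at 629 CPM against 1.86 to 10.1 CPM. Abcc2, the canalicular exporter of glucuronides, had 582 and 808 CPM against 438 and 545 CPM (edgeR adjusted p = 0.380). Fewer transporters were at that level when replicate 1 of either group or gavage replicate 2 was left out.

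Of 17 other conjugating and hydrolysing enzymes, 1 was higher and 5 lower (median -0.46). Nnmt, which methylates nicotinamide, had a log2 fold change of 1.21. Inmt, a further methyltransferase, stood at -1.56, the carboxylesterases Ces1f and Ces2a at -1.54 and -0.55, the glutathione transferase Gsta3 at -1.30 and the epoxide hydrolase Ephx2 at -0.93. Gnmt, the most abundant, had a log2 fold change of -0.44. The count of lower enzymes in this list depended on which library was left out. Among 21 regulators, 2 were higher and 3 lower (median -0.03). Nr1i2, which encodes PXR, stood at 122 and 87.4 CPM against 52.7 and 69.3 CPM (log2 fold change -0.78, edgeR adjusted p = 0.226). Nr0b2, the repressor SHP, had a log2 fold change of -1.83, Stat5b of -0.59, Onecut1 of 1.43 and Stat3 of 1.13. Nr1i3, which encodes CAR, had an interval that spans 0, from -0.48 to 0.70. Hnf4a, the most abundant regulator, had a log2 fold change of -0.27. The count of lower regulators depended on the library left out as well.

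Of the 18 receptor target genes, 2 were higher and 2 lower (median -0.28). Srxn1 and Hmox1, targets of NRF2, had log2 fold changes of 1.45 and 1.17. Acot1, a PPARa target, stood at -1.83 and Cyp2c55 at -1.28. These counts, too, turned on which library was left out.

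Over the 23 tested members, both gavage libraries lay below both of ethanol alone in 9 and above them in 2, beside 27.2% and 27.5% of all tested genes. The 9 are the 7 members already given as lower with Ugt1a6a and Ugt1a6b, and the 2 are Sult1e1 and Ugt1a2. Both of these passed the filter on low counts through their gavage libraries, so nothing is read from their number. The log2 fold change was below 0 in 15 of 23, beside 48.3% of tested genes. By family that was 5 of 8 for Ugt1a, 6 of 7 for Ugt2, 2 of 2 for Ugt3a and 2 of 6 for Sult, with medians of -0.18, -0.84, -0.60 and 0.01. The medians of the families are given as descriptions without a test, and no difference between families was tested.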

How the data were processed

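Messenger RNA of whole liver was sequenced in 4 libraries. The authors deposited counts as whole numbers, 1 row per gene symbol and 1 column per library. Per the submitters' processing notes, the build was GRCm38 and the tools were HTSeq, edgeR, STAR 2.6.0a and bcl2fastq 2.20.0.422. Which annotation was counted, whether strand was used and how multiply mapped reads were handled were not given in the sources used here.

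The analysis used edgeR 4.0.16 under R 4.3.3. filterByExpr by group (minimum count 10, minimum total 15) kept 13309 genes, TMM gave the scaling, and the quasi-likelihood F-test compared gavage with ethanol alone over the whole table, 2-sided, adjusted by Benjamini-Hochberg at 0.05. Each SE was taken as the size of the log2 fold change over the root of its F statistic, and 95% intervals use the degrees of freedom of that fit. The code was tested on simulated data. Chi-square per degree of freedom between libraries of a group was 147 and 157, so none agreed within sampling noise.

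Members, lists and tests were chosen with earlier results of these data known. Members with a mean of at least 10 CPM or an unadjusted p under 0.05 are given by library, others by range. List genes named are those at an unadjusted p under 0.05 without overlap of the groups and the most abundant of each list. Others (Ugdh, Papss1, Gusb, Abcc2, Cyp2b10 and Nr1i3) were chosen after their values were seen. Lengths, coordinates and shared 50-base words come from GENCODE M21 (GRCm38), matched by symbol for all 32 members, and promoters from RefSeq, matched for 29. Alternatives were a replicate block, other scalings (DESeq2 1.42.0 size factors, upper quartile, library totals), no filter, a stricter filter (1 CPM in 2 libraries), DESeq2, limma-voom (limma 3.58.1), the likelihood-ratio test, and each library left out. A search of the promoters for motifs, and some values of the regulator list, are not reported here.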

Additional observations from a re-analysis of the deposited data

How the results depend on the processing

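The count of 0 genes called by edgeR's quasi-likelihood test (2497 at an unadjusted p under 0.05) became 1177 with the DESeq2 Wald test, 549 with the likelihood-ratio test and 410 with a replicate block, and 0 to 31 with each library left out. In the replicate block, members called were Sult1e1 (edgeR adjusted p = 0.0221) and Ugt3a1 (edgeR adjusted p = 0.0497). There 2 members were higher at an unadjusted p under 0.05 in place of 1, beside 12.7% of all tested genes. The added one was Ugt1a2. Ugt1a2 passed the filter on low counts through its gavage libraries alone, and Sult1e1 through these and only 1 library of ethanol alone. Nothing is therefore read from Sult1e1 or Ugt1a2 in this section. Nothing in the labels says that a number marks a shared animal or batch. Deviations of same-numbered libraries from their group means correlated at 0.587 across genes, and with 2 pairs this is a hint only. With a library left out, the lone library of its group is assumed to vary like the other group. Members at that level then numbered 5 to 8 lower and 1 to 4 higher, and genes of the 7 donor, transport and regulator lists 12 to 24 lower (25 with all libraries) and 3 to 14 higher (8). The median log2 fold change of tested Ugt members, -0.23, ran from -0.65 to -0.18 there, and that of Sult members, 0.01, from -0.15 to 0.28. The tested members were not the same in all of these fits. Ugt2b38, high only in replicate 1 of ethanol alone, entered some, as did Sult2b1 and Sult4a1, high only in gavage replicate 1. Nothing is therefore read from the shifts of these medians or of the counts of members. Of the 18 named members, Ugt2b1, Ugt2b5, Ugt3a1, Sult5a1 and Sult1e1 kept their direction and an unadjusted p under 0.05 in all 13 alternatives, and no member at an unadjusted p under 0.05 changed sign. Ugt1a9 ran from -1.58 to 1.48 with a library left out. Sult1d1 changed sign in 5 alternatives, DESeq2 size factors and upper-quartile factors among them. Library totals moved the median of all genes to 0.10 from 0.02. Having 2 libraries per group limits every comparison, and members under 0.1 CPM are at the limit of detection.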
